A study of Mus musculus with 12 samples.

Results

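The genes described here are 10 components of the contractile stress fibre, chosen by symbol from the deposited table of read counts. They are the tropomyosins Tpm1, Tpm2 and Tpm4, the filament-binding genes Cald1 and Cnn2, the myosin regulators Myl9 and Mylk, the crosslinkers Actn1 and Flna, and the adaptor Pdlim7. All 10 were among the 24619 genes of the table. They were picked as abundant cytoskeletal genes because the usual myofibroblast markers Acta2 and Tagln were near the detection floor. Of the 10, 9 had enough reads to be tested, and Myl9 did not.

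The cells were labelled as mouse cardiac fibroblasts in primary culture, the cells that make the matrix of the heart. They were starved for 12 h and then kept for 24 h in conditioned medium. Such medium is one that adipocytes had grown in and released factors into. The labelled protocol lists 10% serum for all 12 libraries. VEC_CM received medium of adipocytes carrying an empty lentiviral vector, and OE_CM medium of adipocytes with a lentivirus that overexpressed the human microRNA hsa-miR-548ay. TGF_VEC_CM received TGF-beta1 with vector medium, and TGF_KD_CM received TGF-beta1 with medium of adipocytes whose lentivirus inhibited the microRNA. Each group had 3 libraries, and the microRNA was changed in the adipocytes, not in the sequenced cells. Groups were read from the titles, since for OE_CM and TGF_KD_CM the treatment field of the later replicates gives the microRNA as 549ay or 550ay. Separate cultures are not stated for the libraries of a group, so p-values measure only the spread between libraries, which may be technical.

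A stress fibre is a bundle of actin filaments that non-muscle myosin II pulls on. Tropomyosins lie along the filament and govern where myosin and other proteins bind, caldesmon and calponins bind the filament and restrain the motor, and myosin light chain kinase switches the motor on by phosphorylating its regulatory light chain. Actinins and filamins crosslink the filaments, and PDZ-LIM proteins dock on them. In the heart these fibres grow when TGF-beta turns fibroblasts into contractile myofibroblasts, and many of the genes are targets of the transcription factor SRF and its actin-sensing cofactors, the MRTFs.

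The libraries held 33379207 to 37226153 counts, and the 10 genes together took 0.340% to 0.381% of them. A count of 3, taken as the detection floor, stood for at most 0.0939 CPM, the count scaled to library size with TMM factors. Of 12 fibroblast markers 11 were in the table, and Tcf21 was not found there under that symbol. Col1a1, Col1a2, Vim and Fn1 were abundant, with Col1a1 at 1303 ± 19.4 CPM (SD, n = 3) in VEC_CM, but Dcn, Lum and Thy1 stood at 0.137, 0.00911 and 0.246 CPM there. Markers of other cell types were mixed. Acta2 had 0.592 CPM in VEC_CM, Myh11 had 0 counts in all 3 VEC_CM libraries, and Myh6, Tnni3, Cdh5 and Cd3e had at most 5 counts in any library. Others were well above the floor in VEC_CM: the pericyte and smooth muscle markers Cspg4, Des and Mcam had 565, 40.7 and 38.0 CPM, the cardiomyocyte marker Tnnt2 71.9 and the leukocyte marker Lyz2 21.96.

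Levels of different genes can be compared only per length. On the deposited FPKM scale, which divides by gene length and depth, the means over 12 libraries ran from Cnn2 at 204 FPKM through Tpm4 at 178, Cald1 at 111, Flna at 110.1, Actn1 at 104, Tpm1 at 53.8, Pdlim7 at 28.4, Tpm2 at 25.6 and Mylk at 5.95 to Myl9 at 0.0347. Neighbours in this order changed places between groups. In OE_CM, Cald1 at 115 ± 0.715 FPKM and Actn1 at 114 ± 3.64 (SD, n = 3) did not differ beyond their spread. In TGF_VEC_CM the same held for Pdlim7 at 32.3 ± 0.736 and Tpm2 at 32.1 ± 0.657 FPKM, and in TGF_KD_CM for Actn1 at 98.9 ± 2.63 and Flna at 98.6 ± 1.34. The order also depends on the length used. Per kilobase of the longest coding transcript in the GENCODE annotation, Cald1 came first with 198 CPM and Cnn2 had 147. The length of Cald1 implied by the deposited counts and FPKM is 8543 bases, and its longest coding transcript has 4777.

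**Figure D1:**
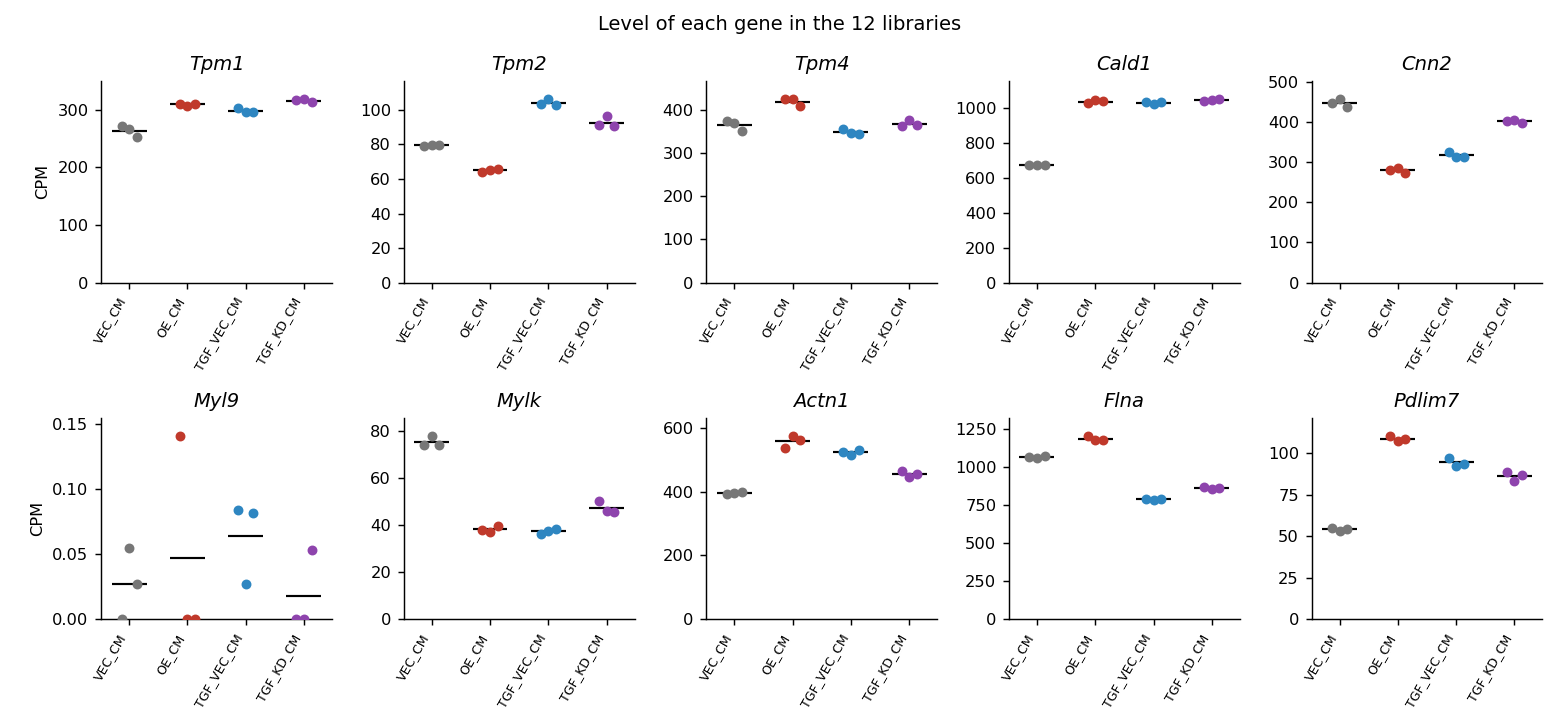
CPM of each of the 10 genes (vertical axes from 0) in the 3 libraries of each group (points), with the group mean as a bar. Pdlim7, Cald1 and Actn1 have their lowest points in VEC_CM and Mylk and Cnn2 their highest, while the Myl9 axis ends below 0.16 CPM.

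Medium of adipocytes that overexpressed the microRNA changed every tested gene of the set, in both directions. Pdlim7 rose 2.01-fold, Cald1 1.54-fold and Actn1 1.41-fold, with smaller rises of Tpm1, Tpm4 and Flna. Mylk fell 1.97 times, Cnn2 1.59 times and Tpm2 1.23 times. In edgeR's quasi-likelihood test with Benjamini-Hochberg adjustment over all 14400 genes tested, 9 of 9 passed at an adjusted p under 0.05, which is what "called" means below. Of all genes 54.0% were called, and of the 4769 genes with at least 50 CPM 72.4%, so calls are common among abundant genes. The 6 calls upward stand beside 28.4% of all genes, and the 3 downward beside 25.7%. Of all called genes 52.5% were thus higher, which scaling by upper quartiles lowered to 35.6% and scaling by totals to 37.8%, while the 9 genes kept their directions and calls. With at least 1.5-fold change 4 of the 9 were called, against 14.4% of all genes, and the median absolute log2 change was 0.50 against 0.23 for all genes and 0.16 for those of at least 50 CPM. No tested gene's OE_CM and VEC_CM libraries overlapped. The share of all genes without such overlap was not counted, so this does not set the members apart. In bulk RNA fewer cells of a type and less RNA per cell cannot be told apart.

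Inhibition of the microRNA under TGF-beta1 changed 8 of the 9 tested genes, by smaller folds. Cnn2 rose 1.27-fold and Mylk 1.26-fold, Actn1 fell 1.15 times, Tpm2 1.12 times and Pdlim7 1.09 times, and Flna, Tpm1 and Tpm4 rose by 1.09-fold or less. Cald1 was not called. The count was 8 of 9 called, 5 higher and 3 lower, where 43.3% of all genes and 60.8% of those of at least 50 CPM were called, 23.0% of all genes higher and 20.2% lower. No gene of the set reached 1.5-fold, which 8.02% of all genes did. The median absolute log2 change was 0.13, against 0.17 for all genes and 0.11 for those of at least 50 CPM. The calls of Tpm1 and Tpm4 were lost without TGF_VEC_CM replicate 2, TGF_VEC_CM replicate 3 or TGF_KD_CM replicate 2, under scaling by totals or upper quartiles, and in limma on log2 FPKM.

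TGF-beta1 with vector medium, compared with vector medium alone, gave Pdlim7 a rise of 1.74-fold, Cald1 1.53-fold, Actn1 1.32-fold, Tpm2 1.31-fold and Tpm1 1.13-fold. Mylk was 2.01 times lower, Cnn2 1.41 times and Flna 1.35 times, and Tpm4 1.05 times. All 9 were called, 5 higher and 4 lower, against 58.3% of all genes (28.9% higher, 29.4% lower) and 73.2% of those of at least 50 CPM. With at least 1.5-fold change 3 of 9 were called, against 16.7% of all genes. The design text puts these groups in different parts of the study, so TGF-beta1 and the part cannot be told apart. This comparison shares its VEC_CM libraries with the first and its TGF_VEC_CM libraries with the second. A deviation of the shared libraries alone would give equal signs with the first and opposite signs with the second.

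**Figure D2:**
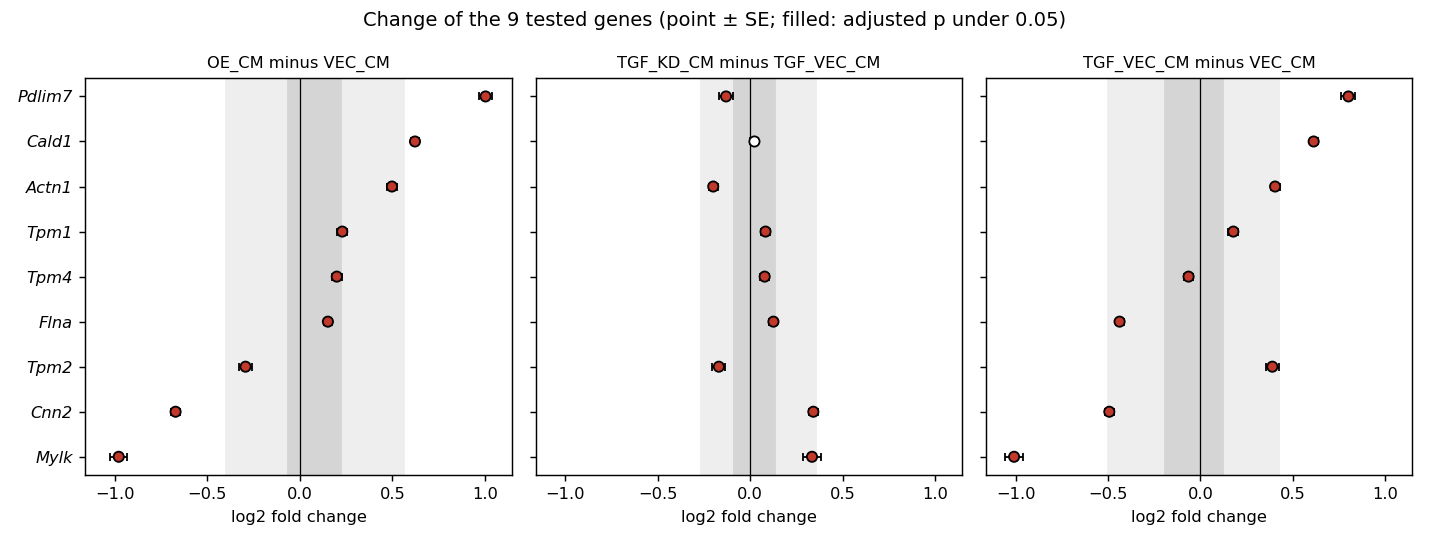
Log2 fold change (horizontal axis, point ± SE) of the 9 tested genes in the 3 comparisons, with filled points for an adjusted p under 0.05. The dark band spans the 25th to 75th percentile and the light band the 5th to 95th percentile of all genes of at least 50 CPM: Pdlim7, Cald1, Cnn2 and Mylk lie outside the light band in the overexpression comparison, and no gene does in the inhibition comparison.

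Tropomyosins are coiled-coil dimers that polymerise head to tail along actin, and the 3 of the set did not move as a block. Tpm1 (GRCm38, chr9:67022590-67049672, minus strand) had 273, 267 and 252 CPM in VEC_CM, 311, 307 and 310.0 in OE_CM, 304, 296 and 296 in TGF_VEC_CM and 317, 318 and 313 in TGF_KD_CM. VEC_CM was the lowest group, and no library of it reached any other group. Its log2 change was 0.23 ± 0.026 (SE) with overexpression medium (edgeR adjusted p = 1.84e-11), 0.08 ± 0.026 with inhibition medium (adjusted p = 0.00715) and 0.18 ± 0.026 with TGF-beta1 (adjusted p = 2.71e-08). The annotation gives Tpm1 16 coding transcripts, and a single count per gene cannot separate its muscle and cytoskeletal isoforms. The rise with overexpression medium was 0.14 under upper-quartile scaling and was still called.

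Tpm2 (chr4:43513726-43523583, minus strand), beta-tropomyosin, went the other way with overexpression medium. It had 79.2, 79.7 and 79.9 CPM in VEC_CM and 63.9, 65.3 and 65.7 in OE_CM, and under TGF-beta1 104, 106 and 103 with vector medium and 91.1, 96.5 and 90.5 with inhibition medium. OE_CM was the lowest group and TGF_VEC_CM the highest, with no overlap between any 2 groups. The log2 changes were -0.29 ± 0.037 with overexpression medium (edgeR adjusted p = 4.74e-10), -0.17 ± 0.036 with inhibition medium (adjusted p = 5.77e-05) and 0.39 ± 0.036 with TGF-beta1 (adjusted p = 6.96e-15). The ratio of Tpm2 to Tpm1 in FPKM was 0.497 ± 0.0221 in VEC_CM, 0.346 ± 0.00644 in OE_CM, 0.575 ± 0.0147 in TGF_VEC_CM and 0.482 ± 0.0145 in TGF_KD_CM (SD, n = 3). It was lowest in OE_CM and highest in TGF_VEC_CM.

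Tpm4 (chr8:72135288-72153142, plus strand), a cytoskeletal tropomyosin of non-muscle cells, was the most abundant of the tropomyosins per length. It had 373, 369 and 349.5 CPM in VEC_CM, 423, 423 and 407 in OE_CM, 355, 346 and 343 in TGF_VEC_CM and 363, 375 and 365 in TGF_KD_CM. OE_CM lay above all other libraries, while VEC_CM overlapped both TGF-beta1 groups. The rise with overexpression medium was 0.20 ± 0.026 on the log2 scale (edgeR adjusted p = 6.9e-10), or 0.11 under upper-quartile scaling, where it was called too. The difference of TGF_VEC_CM from VEC_CM, -0.06 ± 0.026, was called at an adjusted p of 0.0278, and that call was lost under each other scaling and without 9 of the 12 libraries in turn. In the annotation, 15.7% of the 50-base words of Tpm4 transcripts also occur in other genes, 11.7% in the pseudogene Gm7809 and 4.13% in Gm26586. Neither symbol is in the deposited table. How reads shared between genes were counted is not given in the sources used here, so part of the reads of Tpm4 could be missing.

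Caldesmon and calponin both bind actin and hold back the myosin motor, and they moved in opposite directions. Cald1 (chr6:34598495-34775469, plus strand) had 670.4, 673 and 673 CPM in VEC_CM and 1028, 1041 and 1035 in OE_CM. Under TGF-beta1 it had 1031, 1018 and 1034 CPM with vector medium and 1039, 1046 and 1047 with inhibition medium. VEC_CM stood apart below the other groups, which lay within a narrow band. The log2 rise was 0.62 ± 0.022 with overexpression medium (edgeR adjusted p = 1.16e-35) and 0.61 ± 0.022 with TGF-beta1 (adjusted p = 5.13e-35). With inhibition medium it was 0.02 ± 0.021 (adjusted p = 0.408), a difference that was not called in any alternative.

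Cnn2 (chr10:79988600-79995400, plus strand), the calponin of non-muscle cells, was highest where Cald1 was lowest. It had 448, 457 and 437 CPM in VEC_CM and 282, 286 and 274 in OE_CM, and under TGF-beta1 325, 314 and 314 with vector medium and 404, 406 and 398 with inhibition medium. None of the 4 groups overlapped, and TGF_KD_CM lay between TGF_VEC_CM and VEC_CM. The log2 change was -0.67 ± 0.025 with overexpression medium (edgeR adjusted p = 1.09e-33), 0.34 ± 0.025 with inhibition medium (adjusted p = 1.34e-18) and -0.49 ± 0.025 with TGF-beta1 (adjusted p = 1.21e-26). The ratio of Cald1 to Cnn2 in FPKM was 0.314 ± 0.00728 in VEC_CM, 0.77 ± 0.0163 in OE_CM, 0.675 ± 0.013 in TGF_VEC_CM and 0.541 ± 0.00716 in TGF_KD_CM (SD, n = 3). Per length, Cnn2 thus exceeded Cald1 in every group on the lengths implied by the deposited FPKM.

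Because these genes include classic SRF targets, the bases upstream of their start sites were searched on both strands for the CArG box, which SRF binds, and for the MCAT element CATTCC, which TEAD factors bind. RefSeq promoters of GRCm38.p6 covered all 10 genes with 11 start sites, and the search used the 250 bases before each. A CArG box lay upstream of Cnn2 and Myl9, in 2 of 11 promoters, where 1.47% of 32851 mouse promoters hold one. The MCAT element lay upstream of a start site of Tpm1, Cald1, Mylk and Flna, in 4 of 11, where 12.6% of all promoters hold it. For Tpm1, Mylk and Flna that start is an internal one, so the element lies within the span given for the gene. The window of Tpm1 also overlaps an annotated exon of the gene. Cald1 has the element at 1 of its 2 start sites. No CArG box shared a promoter with an MCAT element here. The windows below, each of 30 bases on the strand of the gene, show in capitals the CArG box of Cnn2 and Myl9 and the MCAT element of Mylk and Flna, or its reverse complement in Cald1.
Cnn2 (chr10:79988534-79988563): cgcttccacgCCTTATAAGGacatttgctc
Myl9 (chr2:156775293-156775322): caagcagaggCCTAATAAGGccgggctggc
Mylk (chr16:34784780-34784809): tgcagttcagaaCATTCCctggtacgtgca
Flna (chrX:74246663-74246692): ggcgttgtggggCATTCCaacgggaggggc
Cald1 (chr6:34598339-34598368): gagcatgcctagGGAATGacaggcatctgc

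The site of Cnn2 begins 56 bases before the start and that of Myl9 161 bases before it. The 2 genes with a CArG box differed widely in level, with Cnn2 at 204 FPKM on average and Myl9 at 0.0347. Cnn2 fell where the Srf transcript rose, but the activity of SRF was not tested. The genes with an MCAT element included Cald1, which rose with overexpression medium, and Mylk, which fell. A match of these letters is a description of sequence and was not tested as a binding site, and a window without a match says nothing about either factor.

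Mylk (chr16:34745199-35002436, plus strand) encodes the kinase that activates myosin II in smooth muscle and non-muscle cells. It had 74.3, 77.9 and 74.0 CPM in VEC_CM and 38.0, 36.9 and 39.8 in OE_CM, and under TGF-beta1 36.4, 37.5 and 38.6 with vector medium and 50.3, 45.9 and 45.5 with inhibition medium. OE_CM and TGF_VEC_CM overlapped each other and lay below TGF_KD_CM, which lay below VEC_CM. The log2 change was -0.98 ± 0.047 with overexpression medium (edgeR adjusted p = 5.01e-28), 0.33 ± 0.048 with inhibition medium (adjusted p = 3.12e-08) and -1.01 ± 0.047 with TGF-beta1 (adjusted p = 1.11e-28). The antisense genes E130310I04Rik and Gm21691 overlap Mylk, and whether the counting used strand is not given in the sources used here. They had at most 5 counts and 1 count per library, against 1235 to 2853 for Mylk.

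Myl9 (chr2:156775408-156781657, plus strand) encodes the regulatory light chain that Mylk phosphorylates in contractile cells. It had 0, 2 and 1 counts in VEC_CM, 5, 0 and 0 in OE_CM, 3, 1 and 3 in TGF_VEC_CM, and 0, 0 and 2 in TGF_KD_CM. Only OE_CM replicate 1 was above 3 counts. Levels of Myl9 were not comparable between groups at this depth, and the description of the set as abundant does not hold for it. Its close relatives Myl12a and Myl12b, the regulatory light chains of non-muscle myosin, stood at 237 ± 4.28 and 267 ± 8.32 FPKM in VEC_CM (SD, n = 3). Myl12b fell with overexpression medium by 0.31 ± 0.029 on the log2 scale (edgeR adjusted p = 8.55e-15). Myl12a had 0.06 ± 0.025 (adjusted p = 0.0265), which turned to -0.02 under upper-quartile scaling and lost the call there.

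Actn1 (chr12:80167542-80260420, minus strand) encodes a non-muscle actinin, which holds antiparallel filaments together in stress fibres and at focal adhesions. It had 391, 396 and 400.3 CPM in VEC_CM and 538, 575 and 563 in OE_CM, and under TGF-beta1 523, 517 and 530.2 with vector medium and 465, 446 and 456 with inhibition medium. No pair of groups overlapped, and TGF_KD_CM lay between VEC_CM and TGF_VEC_CM. The log2 change was 0.50 ± 0.025 with overexpression medium (edgeR adjusted p = 2.58e-27), -0.20 ± 0.025 with inhibition medium (adjusted p = 3.32e-10) and 0.40 ± 0.025 with TGF-beta1 (adjusted p = 1.1e-22). Of its 50-base words 6.79% occur in other genes too, 5.69% in the antisense gene Gm47766.

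Flna (chrX:74223461-74249854, minus strand) encodes filamin A, a large crosslinker that ties actin to integrins, and had the most reads of the set on average. It had 1067, 1061 and 1073 CPM in VEC_CM, 1202, 1177 and 1176 in OE_CM, 788, 784 and 791 in TGF_VEC_CM and 867, 853 and 859 in TGF_KD_CM. The libraries without TGF-beta1 lay above those with it, and within each of these sets the groups did not overlap. Flna rose by 0.15 ± 0.021 on the log2 scale with overexpression medium (edgeR adjusted p = 9.26e-09) and by 0.13 ± 0.022 with inhibition medium (adjusted p = 1.58e-06). It fell by 0.44 ± 0.022 with TGF-beta1 (-0.44, adjusted p = 2.06e-27). The rise with overexpression medium shrank to 0.06 under upper-quartile scaling but was called there too.

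Pdlim7 (chr13:55497487-55513473, minus strand), also called Enigma, carries a PDZ domain that docks on the filament and LIM domains that bind signalling proteins. It had 55.0, 53.1 and 54.4 CPM in VEC_CM and 110.2, 107 and 109 in OE_CM, and under TGF-beta1 97.1, 92.4 and 93.4 with vector medium and 88.4, 83.1 and 86.9 with inhibition medium. Every group was separate from every other, with VEC_CM lowest and OE_CM highest. The log2 change was 1.00 ± 0.037 with overexpression medium (edgeR adjusted p = 6.56e-34), -0.13 ± 0.036 with inhibition medium (adjusted p = 0.00216) and 0.80 ± 0.038 with TGF-beta1 (adjusted p = 1.85e-28). Of the genes of at least 50 CPM, 98.3% had a smaller change than Pdlim7 with overexpression medium, and 56.7% with inhibition medium.

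Set beside one another in all 12 libraries, the 9 tested genes took several shapes. Pdlim7, Cald1, Actn1 and Tpm1 were lowest in VEC_CM, Mylk and Cnn2 were highest there, Tpm2 was lowest in OE_CM and highest in TGF_VEC_CM, and Flna and Tpm4 were highest in OE_CM and lowest in TGF_VEC_CM. On the log2 scale relative to the gene's own mean, Pdlim7 ran from -0.62 in VEC_CM to 0.39 in OE_CM, and Mylk from 0.67 in VEC_CM to -0.34 in TGF_VEC_CM. Tpm1 and Tpm4 spanned the least. The set therefore has no common direction in any of the comparisons.

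**Figure D3:**
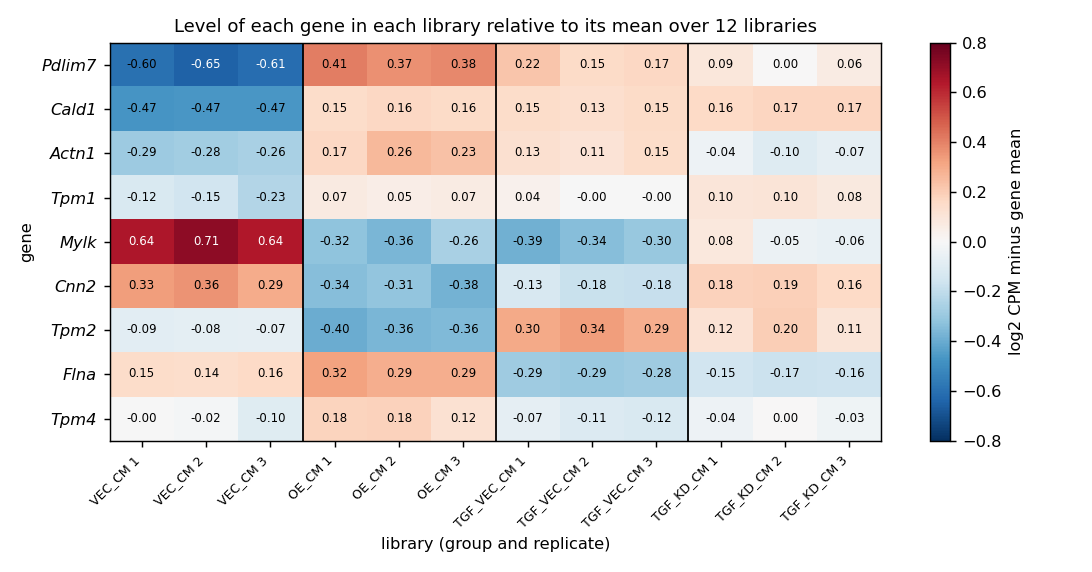
Log2 CPM of each library (columns, by group and replicate) minus the gene's mean over the 12 libraries, for the 9 tested genes (rows); red is above and blue below the mean. Within each group the 3 libraries carry nearly the same values, and VEC_CM is blue for Pdlim7 (-0.62 on average) and red for Mylk (0.67).

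The overexpression and inhibition comparisons share no library, so their effects could be set against each other by a test of the difference itself. The effect of overexpression medium minus that of inhibition medium was called for 8 of the 9 genes, where 52.5% of all genes and 71.8% of those of at least 50 CPM were called. It was 1.13 ± 0.052 for Pdlim7, 0.70 ± 0.035 for Actn1, 0.60 ± 0.03 for Cald1, -1.01 ± 0.036 for Cnn2 and -1.31 ± 0.068 for Mylk on the log2 scale, and 0.15, 0.12 and -0.12 for Tpm1, Tpm4 and Tpm2. For Flna it was 0.03 ± 0.03 and not called (edgeR adjusted p = 0.506). Of the 8 genes called in both comparisons, 4 moved in opposite directions (Pdlim7 and Actn1 up with overexpression and down with inhibition, Mylk and Cnn2 the reverse) and 4 in the same direction (Tpm1, Tpm4 and Flna up, Tpm2 down). Of the 4096 genes called in both, 64.1% moved in opposite directions. The call for Tpm2 (adjusted p = 0.0374) was lost without each of 8 libraries in turn, and that for Tpm4 under scaling by totals or upper quartiles and in limma on log2 FPKM.

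The nearest relatives of the set moved in part with it and in part against it. Tpm3, the remaining tropomyosin gene, rose with overexpression medium by 0.26 ± 0.025 on the log2 scale (edgeR adjusted p = 1.47e-14), close to Tpm1, and had 0.00 ± 0.025 with TGF-beta1 (adjusted p = 0.911). Cnn3 fell with overexpression medium as Cnn2 did (-0.47 ± 0.034, adjusted p = 2.03e-19) but was also lower with inhibition medium (-0.09 ± 0.033, adjusted p = 0.0311), and the smooth muscle calponin Cnn1 had at most 4 counts in any library. Actn4, the other non-muscle actinin, had 0.13, -0.27 and 0.20 in the comparisons of overexpression, inhibition and TGF-beta1, the first of which was lost as a call under scaling by totals or upper quartiles and in limma on log2 FPKM. Flnc, the muscle filamin, rose with TGF-beta1 (0.41 ± 0.029, adjusted p = 1.1e-17), where Flna fell.

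Among the kinases, Mylk2, known from skeletal muscle, went against Mylk. It had 6.56 ± 0.902 CPM in VEC_CM and 16.8 ± 0.291 in OE_CM (SD, n = 3), a rise of 1.36 ± 0.093 on the log2 scale (edgeR adjusted p = 1.89e-20), and 0.87 ± 0.095 with TGF-beta1 (adjusted p = 3.69e-12). In FPKM, Mylk exceeded Mylk2 in VEC_CM with 9.06 ± 0.251 against 2.23 ± 0.309, and lay below it in OE_CM with 4.36 ± 0.188 against 5.44 ± 0.122. Mylk3 and Mylk4 were at or near the floor. Of the other PDZ-LIM genes Pdlim5 fell with overexpression medium (-0.44 ± 0.056, adjusted p = 4.17e-10) and with TGF-beta1 (-0.40 ± 0.055), and Pdlim2 fell with overexpression medium (-0.22 ± 0.047), so both moved against Pdlim7 there. Pdlim1, Pdlim3 and Pdlim4 stood under 1 CPM.

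**Figure D4:**
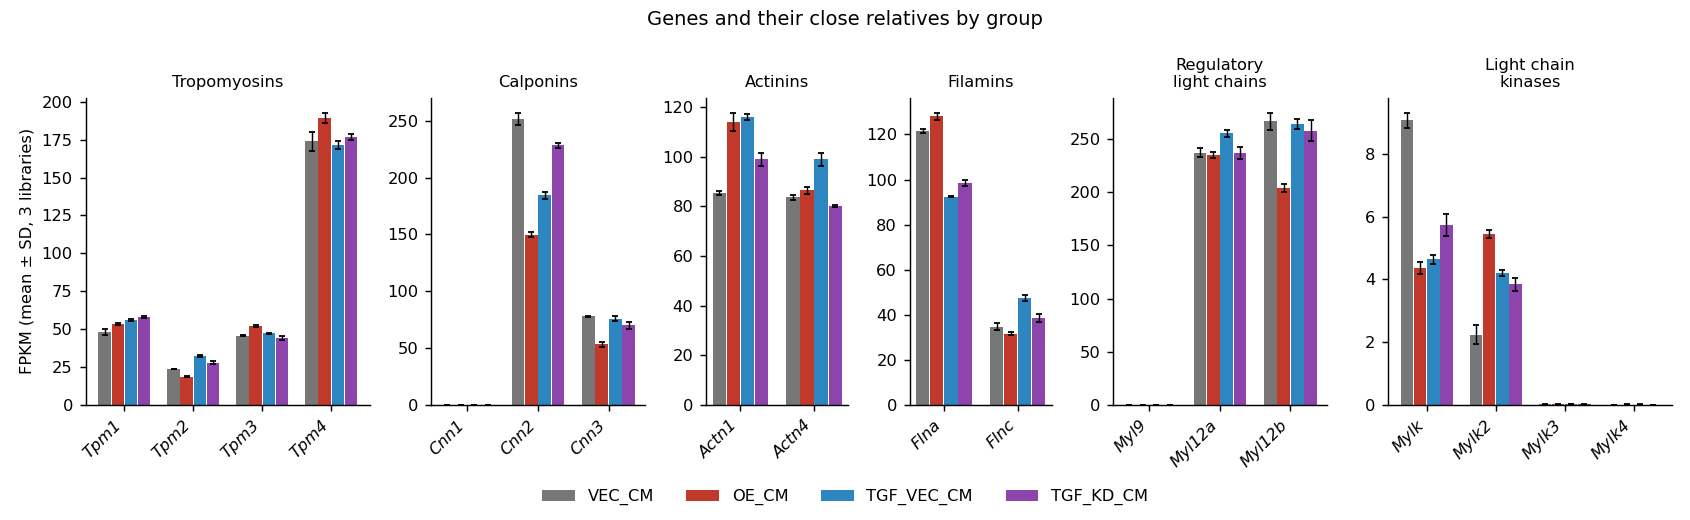
FPKM (bars from 0, mean ± SD of 3 libraries) of the set members beside their closest relatives in each group. Cnn2 and Cnn3, Flna and Flnc, and Mylk and Mylk2 differ in how the groups are ordered, and Cnn1, Myl9, Mylk3 and Mylk4 have no visible bar.

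The actins and the motor that the set works on were described from a list of 19 actin, myosin and thin filament genes, 13 of which could be tested. With overexpression medium 8 were higher and 3 lower (median log2 change 0.15), where 28.4% of all genes were called higher and 25.7% lower. With inhibition medium 1 was higher and 6 lower (median -0.06), beside 23.0% and 20.2% of all genes, and with TGF-beta1 5 were higher and 3 lower (median 0.00), beside 28.9% and 29.4%. The median log2 change of all genes was -0.0081, -0.00026 and 0.0041 in these comparisons. For genes of at least 50 CPM it was 0.080, 0.019 and -0.033. With overexpression medium the list's median lay within their 25th to 75th percentile, -0.065 to 0.22. Upper-quartile scaling lost the higher call of Myl12a with overexpression medium and the lower calls of Tagln2 and Cnn3 with TGF-beta1. Beta-actin, Actb, rose with overexpression medium by 0.15 ± 0.02 and fell with inhibition medium (-0.25 ± 0.02), and gamma-actin, Actg1, did likewise (0.27 ± 0.03 and -0.23 ± 0.03). Myh9, the heavy chain of non-muscle myosin IIA, rose by 0.50 ± 0.021 with overexpression medium (edgeR adjusted p = 3.58e-31) and had 0.02 ± 0.021 with inhibition medium (adjusted p = 0.353). The largest change of this list with overexpression medium was that of Acta1, skeletal alpha-actin, from 5.71 ± 0.185 CPM in VEC_CM to 38.3 ± 2.32 in OE_CM (SD, n = 3), a rise of 6.71-fold, with 14.5 ± 1.39 in TGF_VEC_CM. Smooth muscle alpha-actin, Acta2, had 0.592 ± 0.127 CPM in VEC_CM and 0.376 ± 0.0935 in TGF_VEC_CM and was not called, and Tagln was too low to test.

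Genes that crosslink actin or carry PDZ and LIM domains were described from a list of 20. Of the 17 tested, 3 were higher and 10 lower with overexpression medium, 3 higher and 8 lower with inhibition medium, and 8 higher and 5 lower with TGF-beta1 (medians -0.25, -0.10 and 0.20). Of all genes 28.4% were called higher and 25.7% lower in the first, 23.0% and 20.2% in the second, and 28.9% and 29.4% in the third. One of the 3 higher calls with overexpression medium was that of Actn4, which scaling by totals or upper quartiles and limma on log2 FPKM did not keep. Lima1, which bundles and stabilises filaments, fell with overexpression medium (-0.89 ± 0.026, edgeR adjusted p = 5.73e-40) and rose with inhibition medium (0.59 ± 0.025), the shape of Cnn2 and Mylk. Fblim1 and Palld, which link filaments to adhesions and to actinin, rose with overexpression medium by 0.77 ± 0.036 and 0.69 ± 0.037, as Actn1 and Pdlim7 did. Synpo and Ldb3 fell there by 0.93 and 0.86 on the log2 scale, and Fscn1, which bundles filaments in protrusions, fell with inhibition medium by 0.55.

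Focal adhesions anchor the fibres. Of 18 tested of 20 adhesion genes, 9 were higher and 6 lower with overexpression medium, 6 higher and 6 lower with inhibition medium, and 6 higher and 9 lower with TGF-beta1 (medians 0.09, -0.01 and -0.05). The shares of all genes called higher and lower were 28.4% and 25.7%, 23.0% and 20.2%, and 28.9% and 29.4% in that order. Tes, a zyxin partner, and the adaptor Pxn rose with TGF-beta1 by 0.63 ± 0.034 and 0.47 ± 0.035 and fell with inhibition medium (-0.38 ± 0.033 and -0.28 ± 0.035). Trip6, Parva and Tgfb1i1 did the reverse, with -0.66 ± 0.035, -0.53 ± 0.028 and -0.91 ± 0.085 with TGF-beta1 and 0.55 ± 0.035, 0.41 ± 0.028 and 0.53 ± 0.087 with inhibition medium. All of these were called. Both comparisons use the TGF_VEC_CM libraries, so a deviation of that group alone gives opposite signs.

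The signals that set contractility were read from a list of 23 genes that includes cofilin control and myosin phosphatase, 22 of them tested. With overexpression medium 8 were higher and 5 lower, with inhibition medium also 8 and 5, and with TGF-beta1 6 and 11 (medians 0.03, 0.03 and -0.08). Beside these stand 28.4% and 25.7%, 23.0% and 20.2%, and 28.9% and 29.4% of all genes. Limk2, which inactivates cofilin, rose in all 3 comparisons, by 0.87 ± 0.033, 0.41 ± 0.032 and 0.38 ± 0.034. Ppp1r12b, a targeting subunit of myosin phosphatase, which undoes the action of Mylk, followed Mylk. It fell with overexpression medium (-0.52 ± 0.038) and with TGF-beta1 (-0.51 ± 0.038) and rose with inhibition medium (0.44 ± 0.038). The other targeting subunits listed did not follow Mylk throughout. Ppp1r12c went against it, with 0.17 ± 0.042, 0.22 ± 0.042 and -0.18 ± 0.041 in that order. Its first call was lost under scaling by totals or upper quartiles. Ppp1r12a was called only with TGF-beta1 (-0.16 ± 0.034). The edgeR adjusted p of each of these values was under 0.05.

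SRF with its cofactors was read from 8 genes, 7 of them tested: 4 were higher and 1 lower with overexpression medium, 1 higher and 5 lower with inhibition medium, and 4 higher and 1 lower with TGF-beta1 (medians 0.35, -0.16 and 0.29). All genes were called higher and lower at 28.4% and 25.7%, 23.0% and 20.2%, and 28.9% and 29.4%, respectively. Srf had 62.1 ± 0.978 CPM in VEC_CM, 80.8 ± 2.69 in OE_CM, 76.7 ± 2.86 in TGF_VEC_CM and 62.9 ± 2.76 in TGF_KD_CM (SD, n = 3). It rose by 0.38 ± 0.041 and 0.30 ± 0.041 with overexpression medium and TGF-beta1 and fell with inhibition medium (-0.29 ± 0.041, edgeR adjusted p = 1.76e-08). Mrtfa, the actin-sensing cofactor, had 0.49 ± 0.042, 0.43 ± 0.042 and -0.50 ± 0.042 in the same order, and the LIM cofactor Fhl2 0.50 ± 0.068, 0.70 ± 0.067 and -0.25 ± 0.064. Mrtfb differed: it fell with overexpression medium (-0.27 ± 0.053) and with inhibition medium (-0.13 ± 0.052, adjusted p = 0.035), the latter call being lost in limma on log2 FPKM. Actn1 and Pdlim7 shared the directions of Srf and Mrtfa in the 3 comparisons, and Mylk and Cnn2 had the reverse. The tropomyosins, Cald1 and Flna had neither. These comparisons share libraries, so their signs are not independent.

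**Figure D5:**
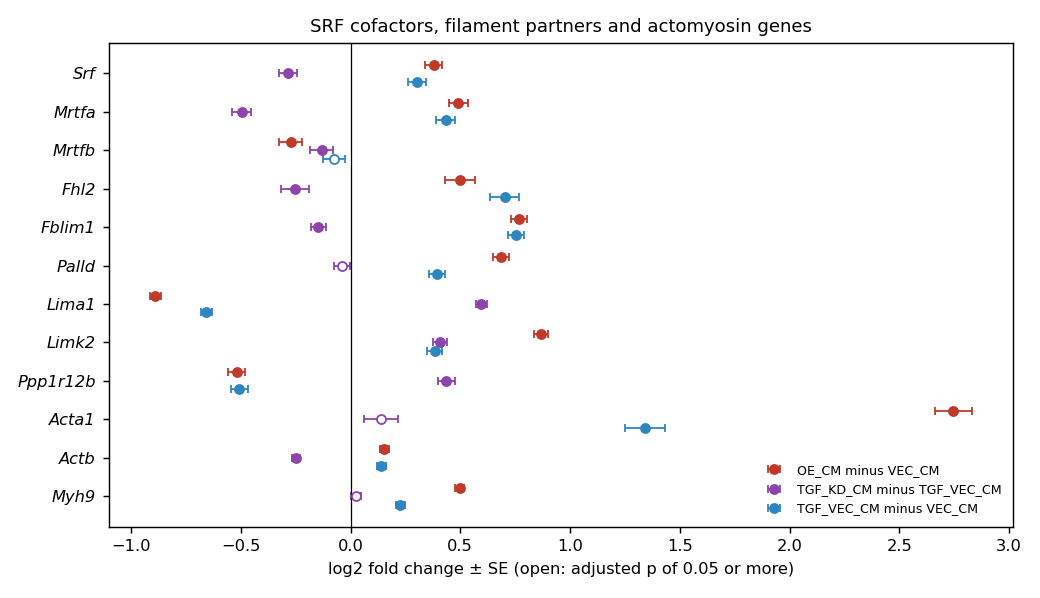
Log2 fold change (horizontal axis, point ± SE) of 12 genes around the set in the 3 comparisons, with open points for an adjusted p of 0.05 or more. Srf, Mrtfa, Fhl2, Fblim1 and Actb lie to the right of 0 with overexpression medium and TGF-beta1 and to the left with inhibition medium, Lima1 and Ppp1r12b lie the other way round, and Acta1 reaches 2.75.

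The summed levels of marker lists of other cell types differed between the groups, each sum resting on 1 or a few genes. Calls of single markers stand beside 28.4% of all genes called higher and 25.7% lower with overexpression medium. These shares were 23.0% and 20.2% with inhibition medium, and 28.9% and 29.4% with TGF-beta1. The 12 smooth muscle and pericyte markers together made 639 to 657 CPM in VEC_CM libraries and 934 to 940.0 CPM in those of OE_CM. Under TGF-beta1 they made 899.7 to 916 CPM with vector medium and 694 to 705 with inhibition medium. Most of this was Cspg4, which had 565 ± 10.9 CPM in VEC_CM and 876 ± 1.83 in OE_CM, and of the 6 testable markers 1 was higher (Cspg4) and 1 lower (Des, 40.7 and 23.9 CPM) with overexpression medium. With TGF-beta1 Cspg4 and Mcam were higher and Des lower, and with inhibition medium Cspg4 and Mcam were lower. The 8 cardiomyocyte markers in the table summed to 72.4 to 77.7, 165 to 169, 107 to 118 and 99.4 to 106 CPM in VEC_CM, OE_CM, TGF_VEC_CM and TGF_KD_CM, nearly all Tnnt2, the 1 of 3 testable markers called with overexpression medium, while Myh6, Tnni3 and Myl2 were at or near 0. The 11 leukocyte markers summed to 36.7 to 39.8, 17.0 to 29.7, 30.4 to 32.96 and 23.9 to 26.5 CPM in that order, with Cd68 and Lyz2 called lower in OE_CM among 9 tested. The 6 adipocyte markers summed to 8.44 to 10.1, 13.4 to 15.5, 11.5 to 12.8 and 16.7 to 19.7 CPM, mostly Cidec, the 1 of 4 testable markers called, higher in each of the 3 comparisons. Adipoq had 0.537 CPM in VEC_CM and 0.299 in OE_CM. The 7 endothelial markers in the table summed to at most 1.85 CPM in any library. The part of these in the values of the set was not tested.

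Outside these lists, genes with the most similar profile were sought among 7735 genes of at least 20 CPM by Pearson's r of log2 CPM over the 12 libraries. The libraries form 4 groups that differ strongly, so r mostly reflects the order of 4 means, and values near 1 are common. The nearest were Myo1d (0.997), Ccbe1 and Fbln2 for Pdlim7, Soat1 (0.987), Prkcd and Adssl1 for Cald1, Mars1 (0.992), Tpst2 and Pcolce2 for Actn1, and Prdx6 (0.967), Coro6 and Isg20 for Tpm1. For the genes highest in VEC_CM they were Hipk2 (0.989), Gas1 and Oxct1 for Mylk and Oat (0.994), Rimoc1 and Cyb5a for Cnn2. For the rest they were Fam234a (0.995), Apobr and Abhd8 for Tpm2, Mta2 (0.993), Snrnp200 and Vcp for Flna, and Fkbp1a (0.981), Zmpste24 and Mtdh for Tpm4.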

How the data were processed

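Messenger RNA of 12 libraries was sequenced after preparation with a SMARTER kit from 1.3 µg of total RNA, per the labels' protocols. The authors deposited a table of raw read counts and one of FPKM. The FPKM equals the counts divided by library total and a fixed length per gene to within 0.01% for all 24619 genes. These lengths were derived from the counts and FPKM themselves. The build is GRCm38 (mm10), per the submitters' processing notes, while aligner, counting tool, strand setting and gene models were not given in the sources used here.

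The main test was edgeR 4.0.16 (R 4.3.3) on the counts: genes kept by filterByExpr (10219 removed), TMM factors, and 1 quasi-likelihood fit with a mean per group and two-sided Benjamini-Hochberg adjusted p over 14400 genes. The threshold was 0.05, and the common biological coefficient of variation was 0.0341. Alternatives used DESeq2 1.42.0, limma 3.58.1 on log2(FPKM + pseudocount), other scalings and filters, a replicate block, and each library left out. Replicates of a group correlated at 0.992 to 0.994 and differed by more than counting noise. The test scripts were tested on simulated data.

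The members and lists were chosen with earlier results of these data known. Named genes are the members, their family relatives (some are not reported here), Acta2, Tagln, Actb, Actg1, Srf, Mrtfa and Mrtfb, and genes from the 3 called ones with the largest change per list, comparison and direction at a mean of at least 5 CPM. Gene positions and shared words come from GENCODE for GRCm38.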

Additional observations from a re-analysis of the deposited data

Results flagged for a closer look

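The effect of overexpression medium (OE_CM minus VEC_CM) and that of inhibition medium under TGF-beta1 (TGF_KD_CM minus TGF_VEC_CM) differed for 8 genes by the test of the difference itself (edgeR's quasi-likelihood test, adjusted p under 0.05, 12 libraries). On the log2 scale the difference was 1.13 for Pdlim7, 0.70 for Actn1, 0.60 for Cald1, 0.15 for Tpm1, 0.12 for Tpm4, -0.12 for Tpm2, -1.01 for Cnn2 and -1.31 for Mylk. Such a difference was called for 52.5% of all genes tested. The inhibition groups also received TGF-beta1, so the kind of lentivirus and the presence of TGF-beta1 cannot be told apart in it.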

How the results depend on the processing

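Over the alternatives, the 9 tested genes kept direction and call with overexpression medium in 189 of 189 refits. In the inhibition comparison 171 refits kept both, 14 lost the call and 4 changed sign. With TGF-beta1 174 kept both and 15 lost the call. For the difference of effects 164 kept both, 12 lost the call and 4 changed sign. The sign changes were those of values never called: Cald1 with inhibition medium at -0.000537 (upper-quartile factors), -0.00968 (totals), -0.00944 (limma, FPKM + 1) and -0.0095 (limma, FPKM + 0.1), and the Flna difference at -0.0377, -0.0177, -0.0174 and -0.0178 in that order. These scalings shift the whole OE_CM comparison down, with 35.6% of called genes higher under upper-quartile factors, 37.8% under totals and 39.7% and 39.6% under limma, against 52.5% with TMM, and the cause was not tested. Leaving out 1 library gave 9 to 9, 6 to 8, 8 to 9 and 7 to 8 genes of the set called (overexpression, inhibition, TGF-beta1, difference) and 7176 to 7821, 5576 to 6308, 7810 to 8527 and 7237 to 7367 of all genes. Libraries of the same number in 2 groups did not deviate together (r from 0.000298 to 0.0436), so the numbers were not treated as pairs. With a replicate block 9, 8, 9 and 8 genes of the set and 7894, 6381, 8521 and 7678 of all genes were called. A fit of only the groups compared was not run for the difference, which uses all 4. Depth limits Myl9 and Cnn1, which had at most 5 counts in any library and were not tested.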
